A study of Mus musculus with 2 samples.

Results

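The platelet-derived growth factor (PDGF) family was followed in the mouse heart through its 6 genes, the ligands Pdgfa, Pdgfb, Pdgfc and Pdgfd and the receptors Pdgfra and Pdgfrb. These genes were chosen by symbol and not by their values, though with earlier results of these data known. They are 6 of the 32245 gene symbols measured. Single nuclei of cardiac tissue were sequenced in 2 libraries, 1 named CF-KI and 1 named control. CF-KI mice carried Tcf21-MerCreMer, a tamoxifen-inducible Cre recombinase driven by the fibroblast gene Tcf21, together with Nlrp3-A350V/A350V, which stands here for constitutive activation of the inflammasome protein NLRP3 in fibroblasts. Control mice carried the same Tcf21-MerCreMer driver with Nlrp3-WT/WT. Both groups were male, of the C57Bl6/J strain, 3.5 months old and injected with tamoxifen, and the design text adds that cells without Cre keep the Nlrp3 allele silent. The number of animals behind a library is not given in the sources used here.

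PDGF ligands are secreted dimers that bind receptor tyrosine kinases on neighbouring cells. PDGF-A and PDGF-C act mainly through the receptor PDGFRα, PDGF-D acts mainly through PDGFRβ, and PDGF-B binds both. In the heart, PDGFRα is a standard marker of fibroblasts, PDGFRβ is a standard marker of pericytes and other mural cells, and PDGF-B made by endothelial cells is known for recruiting pericytes to small vessels.

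The files hold counts of unique molecular identifiers (UMIs), each standing for 1 captured RNA molecule. CF-KI had 21603653 UMIs in 15077 barcodes and the control 18040776 UMIs in 11257 barcodes, of which 12681 and 10858 nuclei were kept. Nuclei were clustered without the 6 PDGF genes, and clusters took a class name, written with the ending -like, from marker lists that hold no PDGF gene. Of these classes, 10 had at least 50 nuclei in each library and were compared. Where a class is said to lead, to come next or to be lowest, it does so among these 10. A level is given as the UMIs of a gene per 1000000 non-mitochondrial UMIs of the class (CPM), with its exact Poisson interval, and a ratio is log2 of the CF-KI level over that of the control, with an exact interval conditional on the gene's summed UMIs. All intervals are at 95%. Since each group has 1 library, differences had no replicate check and could not be tested, so each difference is between these 2 libraries, and the intervals cover counting error only.

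The libraries stood apart in ways that touch every level below. The median mitochondrial share of a barcode was 14.2% in CF-KI against 3.46% in the control. Apart from these differences, 46 barcode sequences occurred in both libraries, and an effect of this on the levels was not tested. Free RNA, meaning RNA from other cells found in a nucleus, was estimated at 16.3% of the UMIs of cardiomyocyte-like nuclei in CF-KI against 7.95% in the control, and in the other 9 compared classes it ranged from 31.2% to 67.1% in CF-KI but from 14.1% to 34.8% in the control. The free RNA level of a gene is this share multiplied by the gene's level in the whole library. A level at or under it was not told apart from background. It is an estimate that exceeds some of the measured levels below, so levels and ratios with free RNA subtracted depend on it. Nuclei of 1 class fell partly into different clusters by library: cluster 1 held 2767 of the 3714 fibroblast-like nuclei of CF-KI, whereas cluster 0 held 2672 of the 3571 of the control. Likewise cluster 2 held 2170 of 2376 cardiomyocyte-like nuclei in CF-KI and cluster 4 held 1955 of 2185 in the control. Nlrp3 had 34 UMIs in all kept CF-KI nuclei and 19 in the control, of which fibroblast-like nuclei held 5 and 0. Cardiomyocyte-like, macrophage-like and endothelial-like nuclei of CF-KI held 9, 7 and 6 of them, and macrophage-like nuclei held 17 of the control's. These counts do not show which allele was read.

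On the GRCm38 build with GENCODE M21 annotation, Pdgfa (ENSMUSG00000025856) spans chromosome 5 from 138976014 to 138997370 on the minus strand and Pdgfb (ENSMUSG00000000489) spans chromosome 15 from 79995874 to 80014977 on the minus strand. Pdgfc (ENSMUSG00000028019) spans chromosome 3 from 81036416 to 81214040 and Pdgfd (ENSMUSG00000032006) spans chromosome 9 from 6168584 to 6378850, both on the plus strand. Pdgfra (ENSMUSG00000029231) spans chromosome 5 from 75152292 to 75198215 and Pdgfrb (ENSMUSG00000024620) spans chromosome 18 from 61045150 to 61085061, also on the plus strand. The protein-coding gene Ddi1 overlaps Pdgfd on the opposite strand and had 264 UMIs in CF-KI against 231 in the control. The antisense gene 6330403L08Rik overlaps Pdgfa and had 150 and 113 UMIs. The strand setting of the counting is not given in the sources used here, and without strand the reads of such a pair cannot be told apart.

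Pdgfb, the ligand of the endothelium, had its highest level in endothelial-like nuclei in both libraries. There, 847 UMIs in 1440 CF-KI nuclei gave 488.7 CPM (interval 456 to 523) and 450 UMIs in 897 control nuclei gave 422.9 CPM (interval 385 to 464). Among the compared classes, the level was 4.26-fold that of the next in CF-KI and 4.01-fold in the control. Macrophage-like nuclei, a known further source of PDGF-B, came next in both. Outside the comparison, smooth muscle-like nuclei of CF-KI (12 UMIs) and monocyte-like nuclei of the control (13 UMIs) stood above macrophage-like ones. Macrophage-like nuclei held 114.6 CPM in CF-KI (89 UMIs) against 105.5 CPM in the control (115 UMIs), over free RNA levels of 55.9 and 15.6 CPM. In the control each of these 2 steps, from endothelial-like to macrophage-like and from there to endocardial-like nuclei, was larger than counting error. In CF-KI the first was, while macrophage-like and lymphatic endothelial-like nuclei did not differ beyond it.

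**Figure D1:**
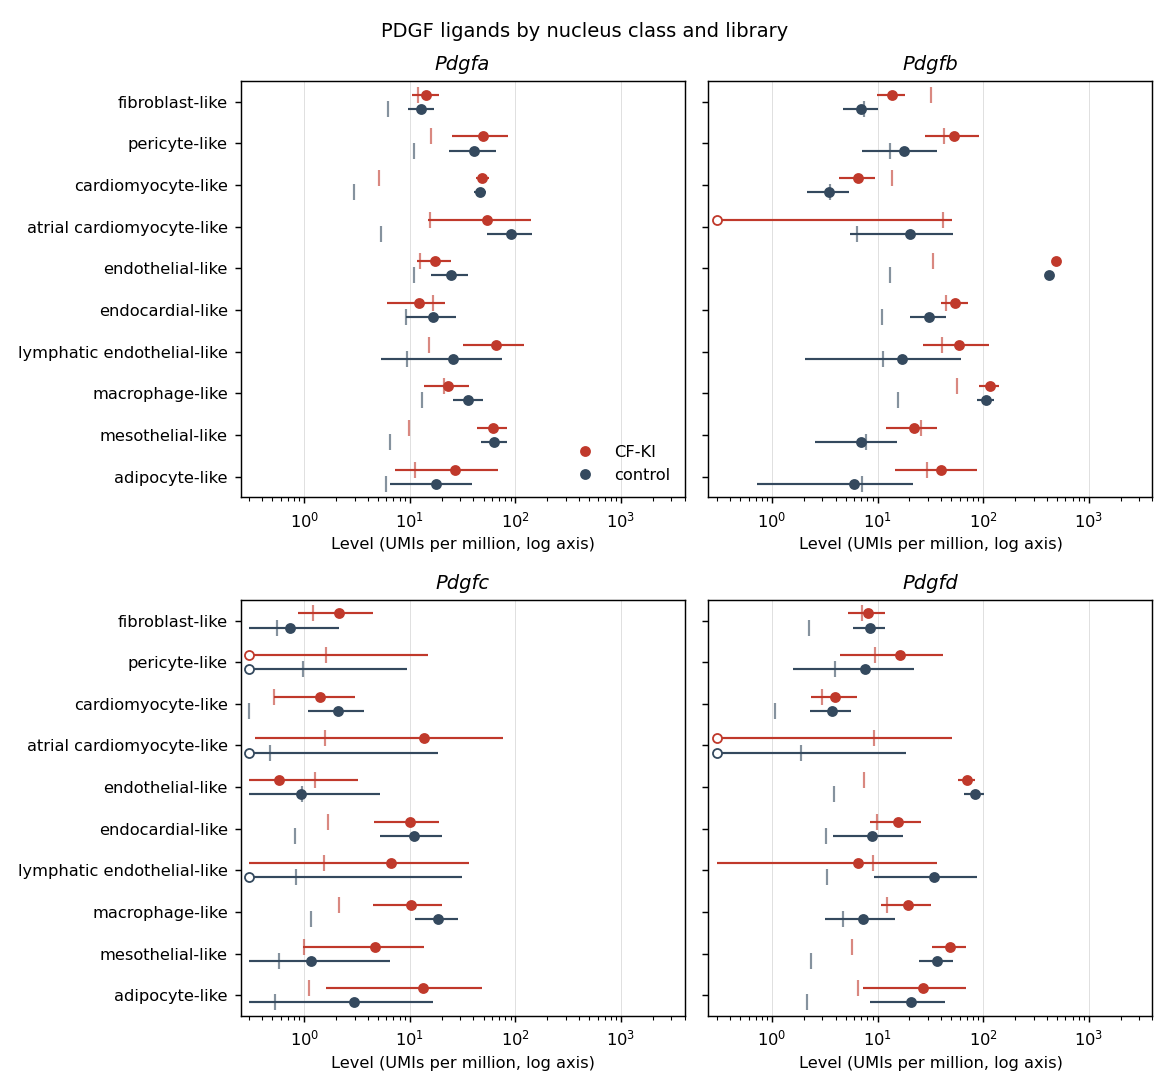
Levels of the 4 PDGF ligands in CPM (log axis) in the 10 compared classes, for CF-KI (red) and control (dark blue). Points are levels, bars are 95% exact Poisson intervals, vertical ticks are free RNA levels and open points mark classes with 0 UMIs, drawn at the left edge. Pdgfb stands at 488.7 and 422.9 in endothelial-like nuclei, whereas Pdgfc stays under 20 in every class.

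A Pdgfb UMI was found in 36.7% of endothelial-like nuclei in CF-KI against 30.1% in the control, at median depths of 942.5 and 792 UMIs. In cardiomyocyte-like nuclei, which serve as the background class, these shares were 1.09% and 0.824% at medians of 1601 and 2315 UMIs. After each nucleus was thinned to 500 UMIs, leaving out 141 and 48 shallower endothelial-like nuclei, the shares were 20.8% (interval 18.6% to 23.1%) and 17.8% (interval 15.3% to 20.5%), and the intervals overlapped. Endothelial-like nuclei held 73.0% of all Pdgfb UMIs in CF-KI against 63.0% in the control. They made up 11.4% and 8.26% of the kept nuclei and held 12.4% and 6.68% of all non-mitochondrial UMIs. Over the whole library Pdgfb was higher in CF-KI, at 83.3 CPM against 44.8 CPM in the control, a log2 ratio of 0.89 (interval 0.76 to 1.03). Within endothelial-like nuclei the log2 ratio was smaller, at 0.21 (interval 0.04 to 0.38), and it became 0.40 when free RNA was subtracted. It was 0.09 (interval -0.07 to 0.25) with doublets kept, so that the interval held 0, as it did after thinning to 500 UMIs (0.17, interval -0.09 to 0.44) and with at most 5% mitochondrial UMIs (0.18, interval -0.16 to 0.51). Endothelial-like nuclei form 2 clusters. In cluster 8, led by the capillary genes Rgcc, Gpihbp1 and Fabp4, Pdgfb stood at 539.0 CPM in CF-KI against 494.1 CPM in the control, and in cluster 9 at 333.9 and 307.7 CPM. The log2 ratio within a cluster was 0.13 (interval -0.07 to 0.32) and 0.12 (interval -0.24 to 0.48), so that both intervals held 0.

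In the other compared classes Pdgfb was sparse and mostly near its free RNA level. In fibroblast-like nuclei it stood at 13.6 CPM in CF-KI (44 UMIs) against 7.02 CPM in the control (29 UMIs), under or near the free RNA levels of 32.0 and 7.43 CPM. Endocardial-like nuclei held 54.1 and 30.7 CPM over free RNA levels of 44.0 and 10.98 CPM, and their log2 ratio of 0.82 (interval 0.12 to 1.54) became -0.29 with free RNA subtracted. Pericyte-like nuclei, the target cells of PDGF-B, held 52.9 CPM in CF-KI (13 UMIs) against 17.8 CPM in the control (7 UMIs), beside free RNA levels of 42.4 and 13.1 CPM. Mesothelial-like nuclei held 21.9 and 7.02 CPM, beside 26.0 and 7.77 CPM of free RNA, and cardiomyocyte-like nuclei held 6.55 and 3.49 CPM, beside 13.6 and 3.57 CPM. Lymphatic endothelial-like nuclei had 9 and 2 UMIs, adipocyte-like nuclei 6 and 2, and atrial cardiomyocyte-like nuclei 0 and 4. All 3 classes are too shallow for a comparison.

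Pdgfd, a ligand of PDGFRβ, also led in endothelial-like nuclei, with 69.8 CPM in CF-KI (121 UMIs, interval 57.9 to 83.4) against 82.7 CPM in the control (88 UMIs, interval 66.3 to 102). The libraries overlapped, with a log2 ratio of -0.24 (interval -0.65 to 0.17). Mesothelial-like nuclei, the cells that cover the heart's surface, came next with 48.6 and 36.3 CPM from 31 UMIs in each library. This next step was larger than counting error in the control but not in CF-KI. The 2 endothelial-like clusters lay on either side of 0: cluster 8 held 76.5 CPM in CF-KI against 109.5 CPM in the control, a log2 ratio of -0.52 (interval -0.97 to -0.06), and cluster 9 held 49.4 and 39.4 CPM, a log2 ratio of 0.33 (interval -0.68 to 1.36). The difference between these clusters was not tested. In macrophage-like nuclei Pdgfd had 15 UMIs in CF-KI (19.3 CPM) against 8 in the control (7.34 CPM), beside free RNA levels of 12.4 and 4.65 CPM. The other compared classes held under 40 CPM, and the 2 cardiomyocyte classes were the lowest of them. There were 17 and 21 UMIs in cardiomyocyte-like nuclei and 0 in atrial cardiomyocyte-like nuclei of either library. Endothelial-like nuclei also held 65 and 61 UMIs of Ddi1, the gene on the opposite strand, at 37.5 and 57.3 CPM.

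Pdgfa, the main ligand of PDGFRα, was spread over muscle, surface and other classes. Cardiomyocyte-like nuclei held the most UMIs, 208 in CF-KI against 265 in the control, which was 47.6% and 44.3% of all Pdgfa UMIs. These nuclei were 18.7% and 20.1% of the kept nuclei but held 30.7% and 36.0% of all non-mitochondrial UMIs. Their level was 48.6 CPM (interval 42.3 to 55.7) in CF-KI against 46.2 CPM (interval 40.8 to 52.1) in the control, and the libraries overlapped with a log2 ratio of 0.07 (interval -0.19 to 0.34). This was far over the free RNA levels of 5.10 and 2.99 CPM. Mesothelial-like nuclei stood slightly higher, at 61.1 and 63.2 CPM from 39 and 54 UMIs. Pericyte-like nuclei stood near the cardiomyocyte-like ones, at 48.9 CPM in CF-KI (12 UMIs) and 40.7 CPM in the control (16 UMIs). Macrophage-like nuclei held 23.2 CPM in CF-KI (18 UMIs) and 35.8 CPM in the control (39 UMIs).

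The class that led for Pdgfa over both libraries together was the atrial cardiomyocyte-like class, at 90.4 CPM in the control (18 UMIs) and 54.4 CPM in CF-KI (4 UMIs). In CF-KI the lymphatic endothelial-like class led instead, at 65.8 CPM from 10 UMIs against 25.6 CPM from 3 UMIs in the control. None of the first 5 classes of CF-KI differed from its neighbour in this order beyond counting error. In the control, atrial cardiomyocyte-like and mesothelial-like nuclei did not differ beyond it, whereas mesothelial-like nuclei stood over cardiomyocyte-like nuclei. Fibroblast-like nuclei, the cells that carry PDGFRα, were among the lowest classes for its ligand Pdgfa, with 14.2 and 12.8 CPM beside free RNA levels of 12.1 and 6.23 CPM.

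Pdgfc, a ligand that is activated by proteases after secretion, was close to the limit of detection. All kept nuclei together held 44 UMIs in CF-KI against 53 in the control, or 3.16 and 3.33 CPM. Macrophage-like nuclei held 8 and 20 of them, at 10.3 CPM (interval 4.45 to 20.3) and 18.4 CPM (interval 11.2 to 28.3). Endocardial-like nuclei held 9 and 10 UMIs, at 9.94 and 10.95 CPM, with a log2 ratio of -0.14 (interval -1.62 to 1.31). Pericyte-like nuclei had 0 UMIs in both, and 3 UMIs would be 12.2 CPM for CF-KI and 7.64 CPM for the control. The exact intervals from 0 UMIs reach 15.02 and 9.39 CPM. At this depth a difference between the libraries was not detectable, since the log2 ratio in macrophage-like nuclei was -0.83 with an interval from -2.23 to 0.41.

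Pdgfra, the receptor of PDGF-A and PDGF-C, marked fibroblast-like nuclei. They held 545.2 CPM in CF-KI (1768 UMIs, interval 520.1 to 571.2) against 689.8 CPM in the control (2848 UMIs, interval 664.7 to 715.6). CF-KI was lower and the intervals did not overlap, with a log2 ratio of -0.34 (interval -0.43 to -0.25). Among the compared classes, fibroblast-like nuclei led the next by 5.73-fold in CF-KI and 6.73-fold in the control. The next class in CF-KI was the atrial cardiomyocyte-like one, at 95.2 CPM from 7 UMIs. Platelet-like barcodes, outside the comparison, stood above it there, as given under other observations. Fibroblast-like nuclei held 76.7% and 86.5% of all Pdgfra UMIs.

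**Figure D2:**
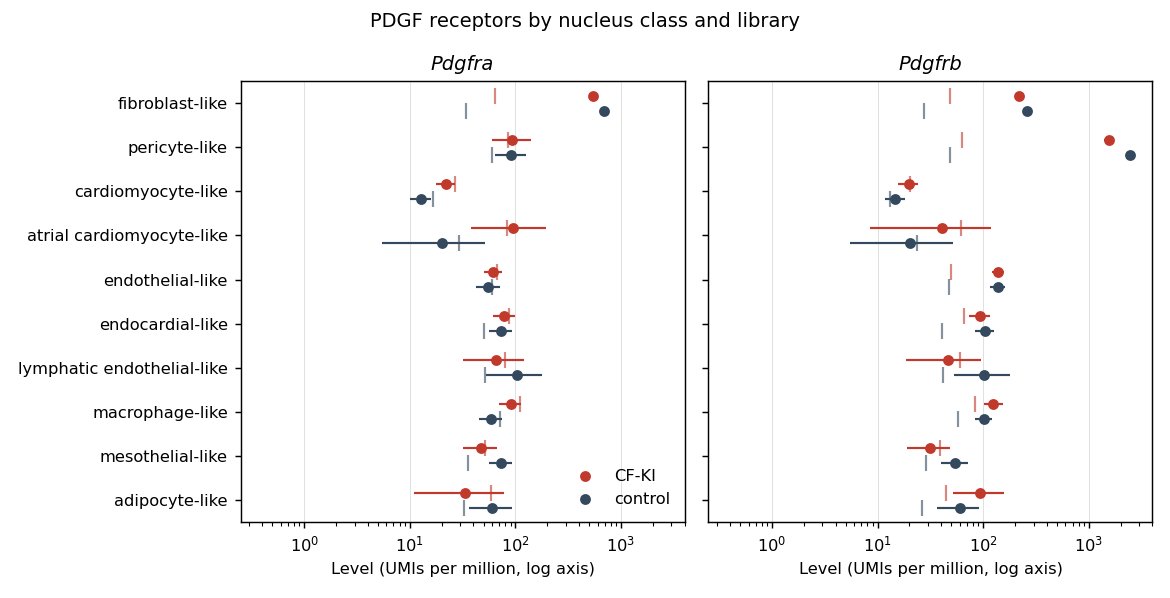
Levels of the 2 PDGF receptors in CPM (log axis) in the 10 compared classes, for CF-KI (red) and control (dark blue). Points are levels, bars are 95% exact Poisson intervals and vertical ticks are free RNA levels. Pdgfra is highest in fibroblast-like nuclei (545.2 and 689.8) and Pdgfrb in pericyte-like nuclei (1535 and 2427).

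A Pdgfra UMI was found in 33.5% of fibroblast-like nuclei in CF-KI against 44.7% in the control, at median depths of 750.5 and 957 UMIs. In cardiomyocyte-like nuclei the shares were 3.75% and 3.16% at 1601 and 2315 UMIs. Thinned to 500 UMIs, the fibroblast-like shares were 22.5% (interval 21.1% to 23.9%) and 26.9% (interval 25.4% to 28.4%), with 292 and 74 shallower nuclei left out. The log2 ratio was also taken within fibroblast-like clusters. In clusters 0 and 1, which hold most control and most CF-KI nuclei, Pdgfra stood at 624.9 CPM in CF-KI against 653.3 CPM in the control and at 522.8 against 518.5 CPM. The log2 ratios were -0.06 (interval -0.27 to 0.14) and 0.01 (interval -0.35 to 0.40), and both intervals held 0. Cluster 10, led by Cd248, Has2 and Pi16, held 607.0 against 828.8 CPM, a log2 ratio of -0.45 (interval -0.65 to -0.25). Cluster 12, led by the matrix genes Cilp, Postn and Comp, held 509.8 against 732.7 CPM, a log2 ratio of -0.52 (interval -0.83 to -0.23). Whether these clusters differ in their ratios was not tested.

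The markers used to name the class moved with Pdgfra. Of the 9 fibroblast markers, 8 were lower in CF-KI fibroblast-like nuclei, with a median log2 ratio of -0.47 and a range from -0.62 to 0.07, beside a median of -0.03 over the 12618 genes with at least 20 UMIs in the class. Free RNA was 38.5% of the UMIs of these nuclei in CF-KI against 16.6% in the control. With free RNA subtracted, the levels of Pdgfra were 783 CPM in CF-KI against 786 CPM in the control, a log2 ratio of -0.0059. Among the nuclei with at most 5% mitochondrial UMIs the log2 ratio was -1.03, from 52 CF-KI and 1476 control nuclei.

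**Figure D3:**
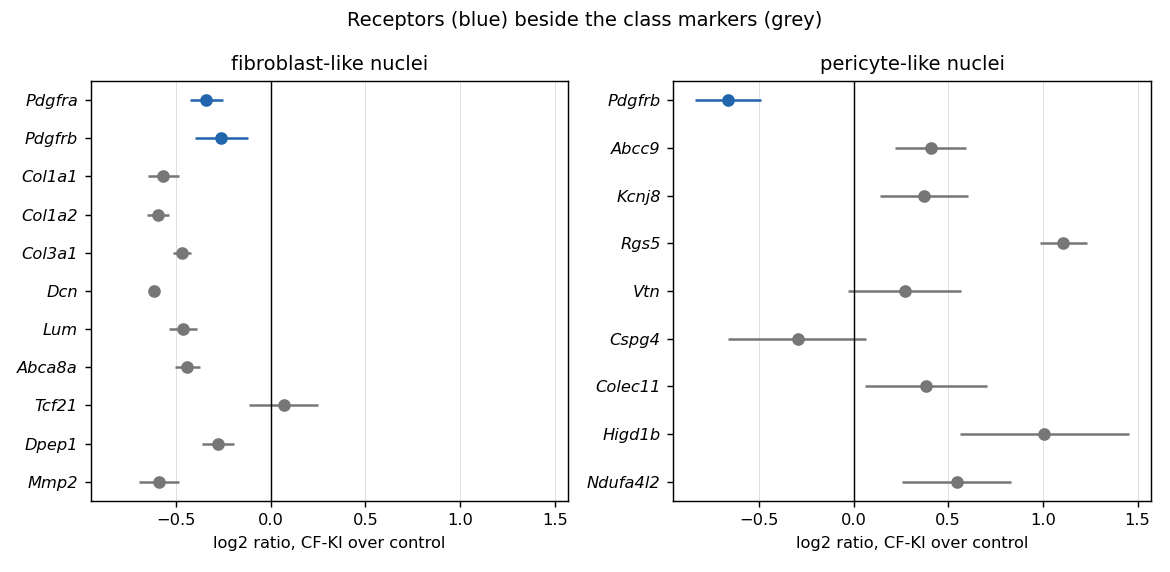
Log2 ratio of CF-KI over control with its 95% interval for the PDGF receptors (blue) and the markers used to name the class (grey), in fibroblast-like nuclei on the left and pericyte-like nuclei on the right. On the left 8 of 9 markers lie under 0 with Pdgfra and Pdgfrb, and on the right 7 of 8 markers lie over 0 whereas Pdgfrb lies at -0.66.

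Much of the Pdgfra in the other classes was at its free RNA level. Endothelial-like nuclei held 61.2 CPM in CF-KI against 55.5 CPM in the control beside free RNA levels of 66.3 and 59.7 CPM, and macrophage-like nuclei held 90.1 and 58.7 CPM beside 110.9 and 72.0 CPM. Pericyte-like nuclei held 93.7 and 91.7 CPM over 84.2 and 60.4 CPM, and endocardial-like nuclei 78.4 and 72.3 CPM beside 87.5 and 50.6 CPM. Mesothelial-like nuclei held 47.0 and 72.5 CPM beside 51.6 and 35.8 CPM, so that these 3 classes stood above free RNA in the control. Lymphatic endothelial-like nuclei did so too, with 65.8 CPM in CF-KI (10 UMIs) and 102.5 CPM in the control (12 UMIs). So did adipocyte-like nuclei, with 33.4 CPM in CF-KI (5 UMIs) and 59.6 CPM in the control (20 UMIs). Their free RNA shares in the control were 24.9% and 15.9%, at a library level of 206.9 CPM. Cardiomyocyte-like nuclei were the lowest in both libraries, with 21.98 CPM in CF-KI (94 UMIs) against 12.7 CPM in the control (73 UMIs). Their log2 ratio was 0.79 (interval 0.33 to 1.25), and their free RNA levels of 26.9 and 16.5 CPM were above the levels measured.

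Pdgfrb, the receptor of PDGF-B and PDGF-D, had its highest level in pericyte-like nuclei, and it was lower in CF-KI. The level was 1535 CPM in 278 CF-KI nuclei (377 UMIs, interval 1384 to 1698) and 2427 CPM in 457 control nuclei (953 UMIs, interval 2275 to 2586). The intervals did not overlap, and the log2 ratio was -0.66 (interval -0.84 to -0.49). Among the compared classes, pericyte-like nuclei led the next by 7.04-fold in CF-KI and 9.29-fold in the control. A Pdgfrb UMI was found in 65.8% of them in CF-KI against 81.6% in the control at like median depths of 733 and 746 UMIs, against 3.16% and 2.61% of cardiomyocyte-like nuclei. After thinning to 500 UMIs the shares were 51.3% (interval 44.7% to 57.8%) and 69.6% (interval 65.1% to 73.8%).

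Most pericyte markers lay in the other direction. Of the 8 pericyte markers, 7 were higher in CF-KI pericyte-like nuclei and the median log2 ratio was 0.40, beside a median of 0.09 over the 5466 genes with at least 20 UMIs in the class. Rgs5, a regulator of G-protein signalling, stood at 5050 CPM in CF-KI against 2343 CPM in the control, a log2 ratio of 1.11. Kcnj8 and Abcc9, which form an ATP-sensitive potassium channel, had log2 ratios of 0.37 and 0.41. The 1 marker lower in CF-KI was Cspg4, the NG2 proteoglycan, with 395.0 and 483.8 CPM and a log2 ratio of -0.29 (interval -0.66 to 0.07).

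Free RNA was estimated at 50.9% of the UMIs of CF-KI pericyte-like nuclei and 29.2% of those of the control, and their median mitochondrial share was 12.4% and 1.86%. With free RNA subtracted, Pdgfrb stood at 2997 and 3359 CPM and the log2 ratio was -0.16. The ratio was -0.87 at a Leiden resolution of 1.5 and -0.94 when each library was clustered on its own. At that resolution an additional pericyte-like cluster, with 93 CF-KI and 35 control nuclei, also had most endothelial and smooth muscle markers raised. So did the CF-KI pericyte-like cluster of 354 nuclei under separate clustering, but not the control one of 466. The part of such nuclei in these 2 ratios was not tested. With at least 500 genes per barcode a like cluster, of 87 CF-KI and 31 control nuclei, was also present, and the ratio was -0.65. With at most 5% mitochondrial UMIs it was -1.40, from 22 CF-KI and 373 control nuclei.

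Among the compared classes, fibroblast-like nuclei came next for Pdgfrb, while the smaller smooth muscle-like class, given under other observations, stood above them. Fibroblast-like nuclei held 218.0 CPM in CF-KI (707 UMIs, interval 202 to 235) against 261.1 CPM in the control (1078 UMIs, interval 246 to 277). CF-KI was lower, with a log2 ratio of -0.26 (interval -0.40 to -0.12) that became -0.019 with free RNA subtracted. Within clusters the log2 ratios lay on both sides of 0. Cluster 0 had a log2 ratio of -0.43 (interval -0.79 to -0.09), whereas cluster 1, with most CF-KI nuclei, had 0.48 (interval -0.14 to 1.19). In clusters 10 and 12 it was -0.18 (interval -0.60 to 0.24) and -0.15 (interval -0.61 to 0.30), and the difference between clusters was not tested. The class held 40.7% of all Pdgfrb UMIs in CF-KI against 40.8% in the control, whereas the share of pericyte-like nuclei was 21.7% and 36.1%. Pericyte-like nuclei themselves were 2.19% of the kept nuclei in CF-KI against 4.21% in the control.

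**Figure D4:**
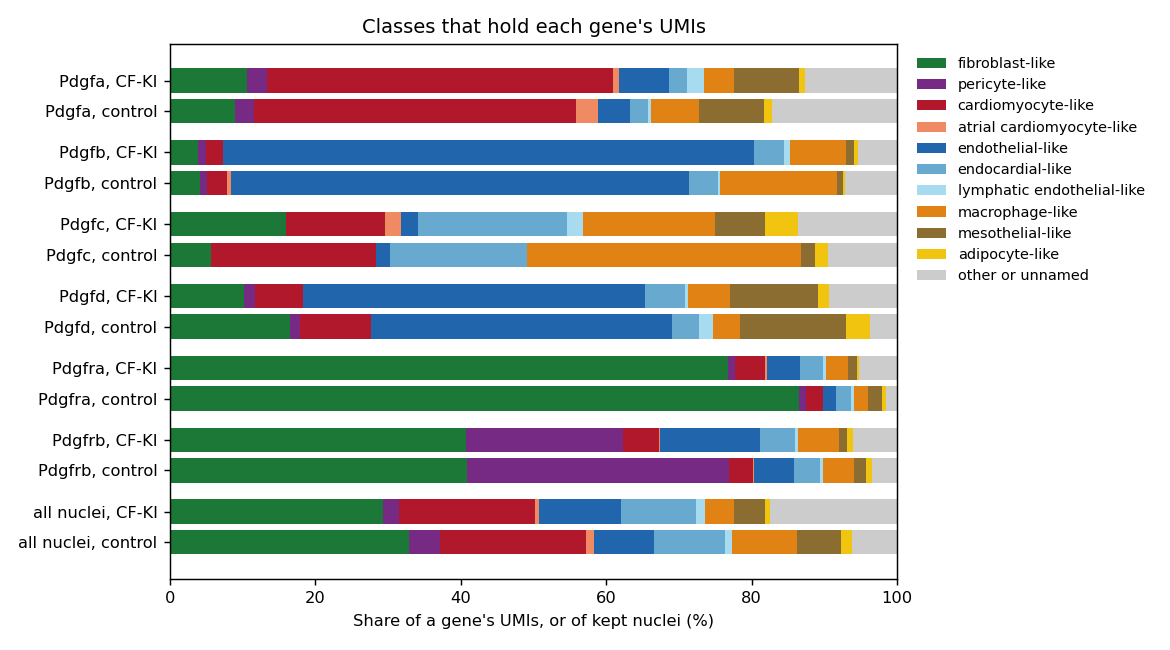
Share of each PDGF gene's UMIs (%) held by each class in CF-KI and control, with the share of kept nuclei in the 2 lowest bars. Fibroblast-like nuclei (green) hold 76.7% and 86.5% of Pdgfra, and pericyte-like nuclei (purple) hold 21.7% and 36.1% of Pdgfrb.

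Few fibroblast-like nuclei had a UMI of both receptors, but each receptor was itself read in a minority of these nuclei, which limits how many can show both. Among fibroblast-like nuclei thinned to 500 UMIs, 769 of 3422 in CF-KI had a Pdgfra UMI, 342 had a Pdgfrb UMI and 63 had both. In the control these numbers were 940, 427 and 101 of 3497. A Pdgfrb UMI was present in 8.19% of CF-KI nuclei with a Pdgfra UMI (interval 6.35% to 10.4%) and in 10.5% of those without (interval 9.37% to 11.7%). In the control it was present in 10.7% (interval 8.84% to 12.9%) and 12.7% (interval 11.5% to 14.1%). In both libraries the share was lower among nuclei with a Pdgfra UMI. The intervals overlapped, and the difference was not tested.

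Endothelial-like nuclei held Pdgfrb at 138.5 CPM in CF-KI against 138.2 CPM in the control, and at 147.7 and 127.0 CPM with free RNA subtracted. Cluster 8 stood at 154.4 and 170.3 CPM and cluster 9 at 89.4 and 86.2 CPM. The summed level of the 8 pericyte markers was 4846 and 3979 CPM in cluster 8 and 3092 and 1177 CPM in cluster 9, against 10817 and 6799 CPM in pericyte-like nuclei, and none of the 8 was at 0. The part of RNA from pericytes in these levels was not tested. Macrophage-like nuclei held 124.9 CPM of Pdgfrb in CF-KI against 101.0 CPM in the control, over free RNA levels of 83.6 and 57.7 CPM. Their summed pericyte markers were at 600.1 and 288.2 CPM.

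Over the family, 4 of the 6 genes had the same leading class in both libraries: Pdgfb and Pdgfd in endothelial-like, Pdgfra in fibroblast-like and Pdgfrb in pericyte-like nuclei. For comparison, 51.2% of the 10564 genes with at least 100 UMIs in each library kept theirs. The 2 that did not were Pdgfa and Pdgfc, and Pdgfc falls under that minimum. The leading fold over the next class was large for Pdgfrb, Pdgfra and Pdgfb among these genes, lying above that of 98.5%, 97.8% and 96.4% of them in CF-KI and of 98.3%, 97.6% and 95.05% in the control.

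In their leading classes, 3 of the 6 genes passed 1.5-fold between the libraries, and all 3 were lower in CF-KI: Pdgfrb in pericyte-like, Pdgfa in atrial cardiomyocyte-like and Pdgfc in macrophage-like nuclei. Such changes were common, since 42.7% of the genes with at least 20 UMIs passed 1.5-fold in either direction in pericyte-like nuclei, 57.0% in atrial cardiomyocyte-like nuclei and 33.2% in macrophage-like nuclei. The intervals of Pdgfa and Pdgfc held 0. Counted over all classes, more intervals lay above 0 than below it. Of the 39 pairs of a PDGF gene and a class with at least 20 UMIs, leading classes included, 9 were higher in CF-KI with an interval without 0, 3 were lower, and in 27 the interval held 0. Over all genes and compared classes, 15.1% of such pairs were higher and 11.6% lower. The 3 lower ones were Pdgfra and Pdgfrb in fibroblast-like and Pdgfrb in pericyte-like nuclei. Of the 9 higher ones, 6 were of Pdgfb, 2 of Pdgfra and 1 of Pdgfd, and 5 had levels at or under free RNA in both libraries. Pdgfra, Pdgfb and Pdgfd stayed within 1.5-fold, as did most genes of their classes, of which 21.7% passed it in fibroblast-like and 23.8% in endothelial-like nuclei. With free RNA subtracted 0 of the 6 passed, and after thinning to 500 UMIs 1 did. TMM scaling moves every log2 ratio of a class by the same amount, which was -0.16 in pericyte-like and cardiomyocyte-like, -0.45 in atrial cardiomyocyte-like, -0.11 in adipocyte-like and 0.11 in endothelial-like nuclei, and changed none of the 6 directions. In cardiomyocyte-like nuclei it turned the log2 ratio of Pdgfa from 0.07 to -0.08.

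**Figure D5:**
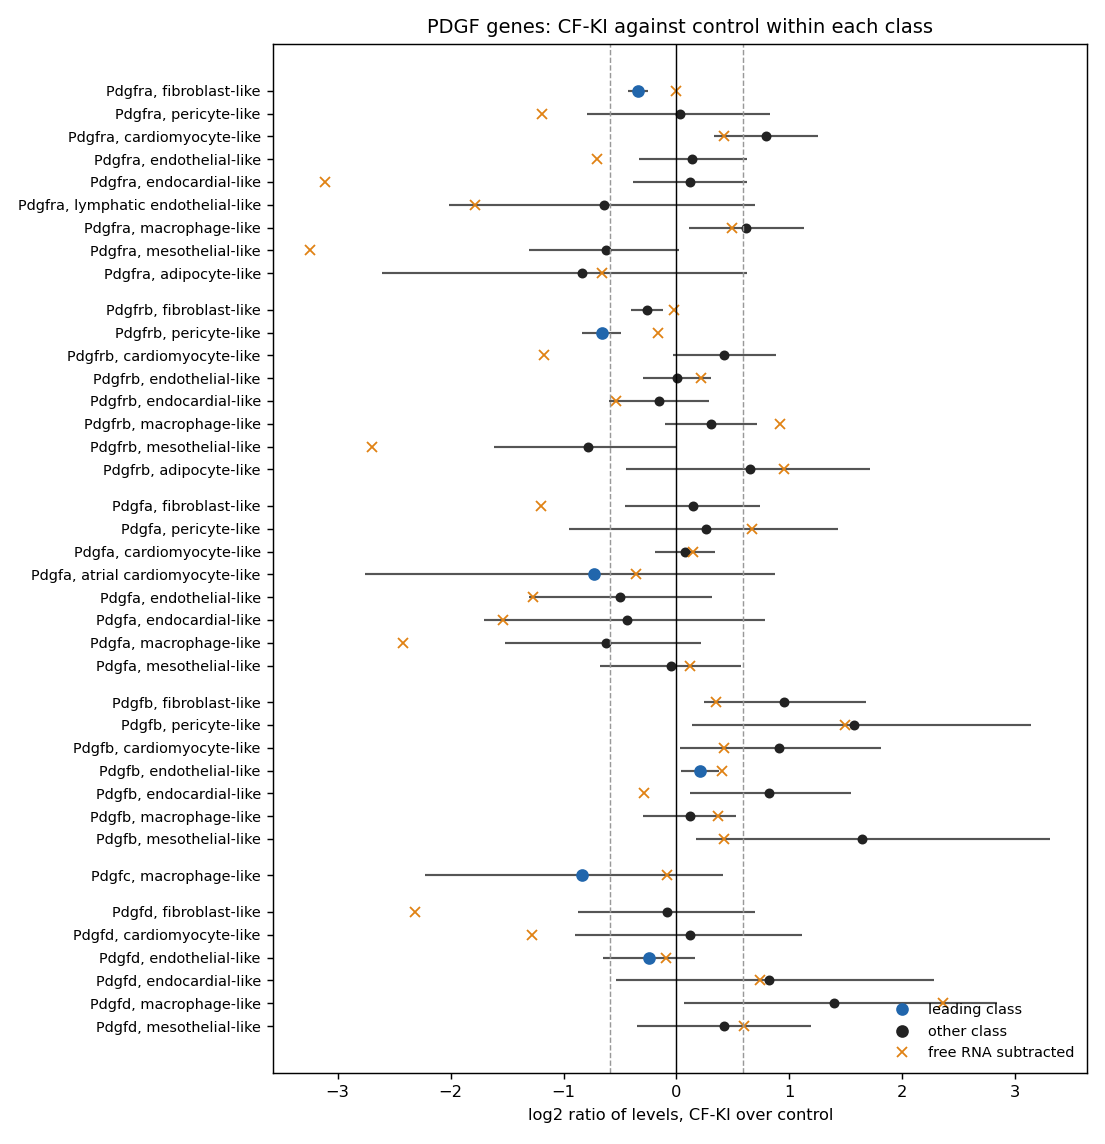
Log2 ratio of CF-KI over control for each PDGF gene and class with at least 20 UMIs, with 95% intervals. Blue points mark a gene's leading class, black points the other classes, crosses the ratio with free RNA subtracted and dashed lines 1.5-fold. Pdgfra lies at -0.34 in fibroblast-like and 0.79 in cardiomyocyte-like nuclei, and Pdgfrb lies at -0.66 in pericyte-like nuclei.

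The genes that process PDGF ligands or carry the receptors' signal were followed through a list of 39. In fibroblast-like nuclei 38 of them had at least 20 UMIs and 4 passed 1.5-fold, 2 higher and 2 lower in CF-KI, against the 21.7% of all genes given above. The median log2 ratio was 0.07 over the list and -0.03 over all genes. Plau, the urokinase protease, was the highest, with 28.4 CPM in CF-KI (92 UMIs) against 5.33 CPM in the control (22 UMIs), a log2 ratio of 2.41 (interval 1.73 to 3.15). The adaptor Nck2 followed with 9.87 and 5.33 CPM and a log2 ratio of 0.89 (interval 0.06 to 1.74). Spry4, an inhibitor of receptor signalling, stood at 41.3 and 28.1 CPM with a log2 ratio of 0.56 (interval 0.19 to 0.93).

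The lowest of the list in fibroblast-like nuclei was Sparc, a matrix protein that binds PDGF-B, with 915.9 CPM in CF-KI against 1640 CPM in the control and a log2 ratio of -0.84 (interval -0.90 to -0.78). Over both libraries it had the highest level of the 4 co-receptor and ligand-binding genes, all of which had a log2 ratio under 0. The convertase Pcsk5 followed at 33.6 and 53.0 CPM (log2 ratio -0.66, interval -1.003 to -0.32), then Lrp1, an endocytic co-receptor, at 961.5 and 1332 CPM (log2 ratio -0.47, interval -0.53 to -0.41). In the other roles the genes with the highest level lay within 1.5-fold. Plat, the tissue plasminogen activator that cleaves PDGF-C, stood at 94.7 and 104.9 CPM, and Pik3r1, a regulatory subunit of PI3-kinase, at 210.9 and 225.3 CPM. Cblb, a ubiquitin ligase, stood at 133.5 and 116.0 CPM, and the early response gene Junb at 126.7 and 116.3 CPM. All 5 early response genes and all 9 negative regulators lay within 1.5-fold.

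In pericyte-like nuclei 25 of the 39 genes had at least 20 UMIs and 6 passed 1.5-fold, 4 higher and 2 lower in CF-KI, a smaller share than the 42.7% of all genes. The median log2 ratio was 0.06 over the list and 0.09 over all genes. The 3 highest were the adaptors Grb2 (15 and 11 UMIs, log2 ratio 1.12, interval -0.10 to 2.39) and Gab1 (20 and 16 UMIs, 1.00, interval -0.02 to 2.04) and the transcription factor Junb (17 and 15 UMIs, 0.86, interval -0.23 to 1.96). All of these intervals held 0. Nrp1, a co-receptor, was the fourth, at 460.2 CPM in CF-KI against 305.6 CPM in the control, a log2 ratio of 0.59 (interval 0.21 to 0.97).

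The 3 lowest in pericyte-like nuclei were the early response gene Egr1 (6 and 18 UMIs, log2 ratio -0.91, interval -2.53 to 0.49), Pik3r1 and the convertase Furin (10 and 23 UMIs, -0.52, interval -1.76 to 0.60). Pik3r1 stood at 228.1 CPM in CF-KI (56 UMIs) against 382.0 CPM in the control (150 UMIs), and its log2 ratio of -0.74 (interval -1.21 to -0.29) excluded 0. The level of Sparc, again the highest of its role, was 1022 and 827.6 CPM, a log2 ratio of 0.30 (interval 0.06 to 0.55). Plat and Spry4, the highest of theirs, stood at 73.3 and 94.2 CPM and at 126.3 and 89.1 CPM.

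The genes most like each member over the 20 points of 10 classes in 2 libraries, by Pearson's r of log2(CPM + 1), are given as a description, since the points share libraries and depth. Pdgfra was most like Col6a3 (0.965), a collagen, Dpep1 (0.958), itself one of the fibroblast markers, and Abca8b (0.957). Among the genes most like Pdgfrb was Errfi1 (0.909), an inhibitor of receptor tyrosine kinases of the EGF receptor family. Pdgfb was most like Rsad2 (0.912), Cnot6l (0.905) and Depp1 (0.891), and Pdgfd was most like Ddi1 (0.895), the gene on its opposite strand, Gbp5 (0.887) and Nck2 (0.887). The closest genes were less alike for Pdgfa, namely Ppfibp2 (0.838), Gm10848 (0.835) and A930002C04Rik (0.802), and for Pdgfc, with 97 UMIs in all, Alox5ap (0.762), Atp6v0a1 (0.745) and D1Ertd622e (0.744). Among the members themselves, the r was 0.598 between Pdgfb and Pdgfd and 0.556 between Pdgfra and Pdgfrb.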

How the data were processed

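Nuclear RNA was counted in 2 libraries with a 10x Genomics 3′ kit, per the labels. The authors deposited raw UMI counts for each gene in each barcode, made with Cell Ranger 6.1.1 on mm10, per the submitters' processing notes. Cell calling, intron counting and annotation are not given in the sources used here.

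Features sharing a symbol were summed. Barcodes with at least 200 genes were kept, with no mitochondrial limit. Doublets called by Scrublet in scanpy 1.11.5 were removed: 2286 CF-KI barcodes (15.3%) but only 338 control barcodes (3.02%), against expected shares of 12.06% and 9.01%. Both libraries entered 1 clustering, from 2000 variable genes through 30 principal components and 15 neighbours to leidenalg 0.10.2 at a resolution of 0.8, leaving out the members and the pathway list. A name needed at least 3 raised markers, and clusters with a median mitochondrial share over 50% or with leading genes of another list stayed unnamed. The free RNA share of a class is the median, over markers of other classes with at least 100 UMIs, of its CPM over the library's CPM; cardiomyocyte markers served for all classes other than the cardiomyocyte ones. Subtraction assumes that free RNA mirrors the library's total. Counts under 3 were set to 3 for fold counts. For scaling alone, with no test, edgeR 4.0.16 gave TMM factors and DESeq2 1.42.0 its size factors, in R 4.3.3. Ratio intervals were tested on simulated Poisson counts. These hold no variation between nuclei or libraries beyond counting error, so the test covers counting error only.

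Named are the 6 members in every compared class, the 3 highest and 3 lowest pathway genes by log2 ratio in each of 2 classes, the gene with the highest level in each role, and the 3 genes most like each member, of which some for Pdgfrb are not reported here. Class markers were named after their values were seen, as was Nrp1 in pericyte-like nuclei. The members, lists and classes were chosen with earlier results of these data known. The alternatives were limits of 20% and 5% mitochondrial UMIs, at least 500 genes, no removal of doublets, resolutions of 0.4 and 1.5, clustering by library, both scalings, free RNA subtracted, thinning to 500 UMIs, and pathway minimums of 100 UMIs or none.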

Additional observations from a re-analysis of the deposited data

Results flagged for a closer look

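Pdgfra was lower in CF-KI in fibroblast-like nuclei (log2 ratio -0.34) and higher in cardiomyocyte-like nuclei (0.79), with intervals on opposite sides of 0. The log2 ratios differed by 1.13, and this difference was not tested. In cardiomyocyte-like nuclei both levels, 21.98 and 12.7 CPM, lay under the free RNA levels of 26.9 and 16.5 CPM. Within the 2 cardiomyocyte-like clusters the log2 ratio of Pdgfra was 0.38 (interval -0.61 to 1.55) and -0.53 (interval -2.45 to 0.89), so that both intervals held 0.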

How the results depend on the processing

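The 10 results were recomputed under up to 13 alternatives, 114 combinations in all. The value lay inside the reported interval, or the count within 1.5 times the reported one, in 94, 20 moved further, and 0 reversed a ratio whose interval excluded 0. With free RNA subtracted, the log2 ratio in the leading class was 0.40 for Pdgfb, -0.0059 for Pdgfra and -0.16 for Pdgfrb, 0 members passed 1.5-fold, and 8 pathway genes passed it in fibroblast-like and 14 in pericyte-like nuclei (4 and 6 as reported). With at most 5% mitochondrial UMIs the log2 ratio was -1.03 for Pdgfra, -1.40 for Pdgfrb and 2.93 for Pdgfa, the last from 1 and 3 UMIs, and 12 of 32 pathway genes passed in fibroblast-like nuclei. Clustering each library on its own gave 0.42 for Pdgfb and -0.94 for Pdgfrb with 13 pathway genes in pericyte-like nuclei, and a Leiden resolution of 1.5 gave -0.87 for Pdgfrb with 13 genes. Under both settings, and with at least 500 genes per barcode, a pericyte-like cluster also had raised markers of other lists, as given above. Thinning left 1 member past 1.5-fold (3 as reported). At least 500 genes per barcode gave 7 pathway genes in fibroblast-like nuclei. In pericyte-like nuclei the count was 2 with doublets kept, 2 of 4 genes at a minimum of 100 UMIs, and 15 of 38 with no minimum, where fewer or more genes are counted. The causes of these moves were not tested. The number of members with the same leading class was 4 under 8 of the 11 alternatives run for it. It was 5 with at most 20% mitochondrial UMIs, at least 500 genes per barcode or free RNA subtracted. The classes compared were 10 as reported and 11 with doublets kept. At the 5% limit they were only 4, without the pericyte-like class and its 22 CF-KI nuclei, so an equal count need not mean the same leading classes. No paired analysis was possible because each group has 1 library. Depth limits Pdgfc and atrial Pdgfa most.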

Other observations

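Some classes fell outside the comparison because a library held under 50 of their nuclei, and they are given as values. Smooth muscle-like nuclei, 44 in CF-KI and 34 in the control, held Pdgfrb at 480.8 CPM (29 UMIs, interval 322 to 690.5) and 461.6 CPM (22 UMIs, interval 289 to 698.8). Their Pdgfa stood at 66.3 CPM from 4 UMIs and 167.8 CPM from 8 UMIs, and their Pdgfb at 198.9 CPM from 12 UMIs and 62.9 CPM from 3 UMIs. Pdgfra had 1 UMI in each library there, and Pdgfd had 7 and 1 UMIs. In CF-KI the 7 UMIs of Pdgfd, of 60317 non-mitochondrial UMIs, gave a level above that of endothelial-like nuclei. Monocyte-like nuclei, 51 in CF-KI and 49 in the control, had 2 and 13 UMIs of Pdgfb. In the control these 13, of 84945 non-mitochondrial UMIs, gave a level above that of macrophage-like nuclei.

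The control library alone held 126 airway epithelial-like nuclei, and these had 68 UMIs of Pdgfa, or 217.7 CPM, above the level in each of the compared classes. They held 11.4% of all Pdgfa UMIs of the control library from 1.16% of its nuclei and 1.96% of its non-mitochondrial UMIs. Most of these Pdgfa UMIs, 59 at 288.6 CPM, lay in 1 of the 2 airway clusters. Lung epithelium is known to make PDGF-A, and CF-KI had 0 nuclei of this class.

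Platelet-like barcodes, 99 in CF-KI and 12 in the control, had 4 and 1 UMIs of Pdgfb. In CF-KI this was 45.1 CPM, under the free RNA level of 79.1 CPM, since the free RNA share of this class was at its cap of 95%. Pdgfra stood there at 281.6 CPM (25 UMIs, interval 182.2 to 415.7) in CF-KI, over a free RNA level of 157.1 CPM, and had 1 UMI in the control. An unnamed cluster led by Wnt9b and Hapln1, with 93 CF-KI and 87 control nuclei, held Pdgfb at 39.7 CPM (5 UMIs) and 107.4 CPM (22 UMIs) and Pdgfa at 79.3 CPM (10 UMIs) and 68.4 CPM (14 UMIs).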
